A study of Gallus gallus with 4 samples.

Results

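Feedback regulators and targets of canonical Wnt signalling were followed in the primitive streak region of chicken embryos in which HoxA13 was overexpressed. The set comprised AXIN2, LEF1, NOTUM, ZNRF3, LGR4, LGR5, APCDD1, TNFRSF19, NKD1 and DACT2. It was chosen by gene symbol, and all 24 probe sets that the platform annotation assigns to these 10 genes were taken, out of 37695 chicken probe sets and 13009 named genes. Background was set on each array at percentile 99 of its probe sets for viruses. Of the 24 probe sets, 11 were above it on all 4 arrays, 1 on 3 arrays, 2 on a single array and 10 on none.

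Total RNA came from the part of the streak that holds the precursors of the PSM (presomitic mesoderm), from which somites form. Embryos were electroporated at stage 5 of the Hamburger and Hamilton series with a vector for HoxA13, under the CAGGS promoter, together with an H2B-Venus reporter (2 arrays), or with an H2B-Venus reporter alone (2 arrays). Eggs had been incubated for 24 h at 38 °C, the embryos were cultured for another 14 h, to 9 somites, and each array held RNA from a pool of 7 embryos. CAGGS is a broadly active promoter, the labels do not give the share of cells that took up a vector, and every sample went through a double amplification before hybridisation.

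In the canonical pathway a Wnt ligand binds Frizzled and LRP receptors, β-catenin escapes the complex that marks it for destruction, and it enters the nucleus to activate genes through TCF and LEF factors. Many of the activated genes act back on the pathway at the ligand, the receptor or the destruction complex, so their transcripts are widely used as a readout of signalling. In the streak and tail bud, Wnt signalling is known for maintaining progenitors and for directing them into the PSM.

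The labels could be checked only in part. The probe set for HOXA13 itself stayed near background, with 16.3 and 8.09 on the arrays labelled HoxA13 against 11.6 and 24.7 on control arrays, and which part of the transcript it reads is not known here. It therefore does not bear out the labels, and directions below are those of the labels. The brightest reporter probe set gave 7038 and 7458 on the arrays labelled HoxA13 against 1293 and 1454 in controls. Both groups received an H2B-Venus reporter, so this difference does not show which arrays received HoxA13. Its cause was not tested. Background was 14.3 and 14.5 on the arrays labelled HoxA13 and 12.8 and 16.5 in controls. All 8 streak and tail bud markers were above it on at least 2 arrays, and of the 6 PSM markers TBX6 and RIPPLY2 were below it on all arrays. Each of the 27 hybridisation spike-ins was dimmer on either replicate 1 array than on either replicate 2 array, so differences are also given between arrays of equal number. No label ties the number to a day, a batch or a pairing of samples.

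Intensities were compared as HoxA13 minus control on a log2 scale with limma, a linear model that shares the estimate of spread across probe sets, over all chicken probe sets. Adjusted p-values are Benjamini-Hochberg. A second fit, here the offset fit, used log2(intensity + 16), only the 15818 probe sets above background on at least 2 arrays, and a prior that follows intensity. The offset fit was also run with the replicate number as a term, here the replicate term. For 1 gene alone the smallest p that an exact permutation test, two-sided, allows with this many arrays is 0.333.

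At their brightest probe sets, DACT2 was 2.40-fold lower with HoxA13 and LGR4 1.57-fold lower, while AXIN2 was 1.27-fold higher (n = 2 each). NOTUM, APCDD1, ZNRF3 and TNFRSF19 were detected on all arrays with groups that overlapped. LEF1 was at the edge of detection, and LGR5 and NKD1 were below background. In the fits that kept all 4 arrays, DACT2 was the only 1 of the 10 genes with a call. That call needed the offset fit together with the replicate term. The replicate term without the offset, the filter on dim probe sets and the prior that follows intensity gave an adjusted p of 0.883 in limma.

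None of the 24 probe sets passed an adjusted p of 0.05 in limma over all chicken probe sets, where 0.0% of the 37695 passed as higher and 0.0% as lower, and none had an unadjusted p under 0.05, against 5.91% of all. In the offset fit 0 of the 12 tested passed, where 0.019% of all probe sets passed as higher and 0.0632% as lower, and 3 had an unadjusted p under 0.05, against 5.14% of all. With the replicate term 2 passed as lower, both of DACT2, against 0.676% of all probe sets, and 0 as higher, against 0.335%. In that fit 5 had an unadjusted p under 0.05, against 10.1% of all. Both DACT2 probe sets, which share a source sequence and are not independent, are among these 5 and among the 3 of the offset fit. The 95% interval of the first fit held 0 for all 24. Of the 10 genes, taken at their brightest probe set, AXIN2 had groups that did not overlap with the arrays labelled HoxA13 higher, and LGR4 and DACT2 with them lower. Over all chicken probe sets 32.9% had groups that did not overlap, 17.0% with the arrays labelled HoxA13 higher and 16% with them lower, so 3 of 10 is near the background.

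**Figure D1:**
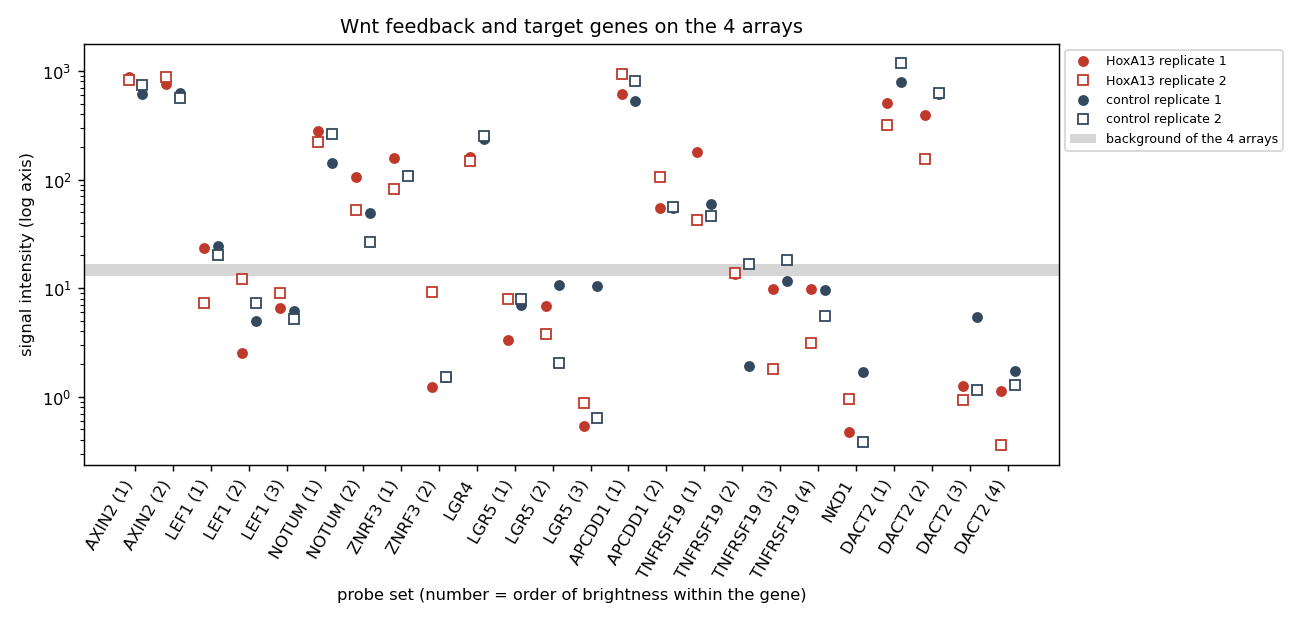
Signal intensity (log axis) of the 24 probe sets of the 10 genes on each of the 4 arrays, numbered within a gene by brightness, with arrays labelled HoxA13 in red at the left of each pair and controls in dark blue at the right. The grey band spans the background of the 4 arrays, from 12.8 to 16.5. DACT2 (1) and (2) and LGR4 lie lower on both arrays labelled HoxA13, while LGR5 and NKD1 lie under the band on every array.

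DACT2 differed most among the 12 probe sets above background on 2 or more arrays. The Dact proteins bind Dishevelled, the cytoplasmic relay of the Wnt receptor, and in zebrafish Dact2 is also known to promote the breakdown of Nodal receptors. The brightest DACT2 probe set had 511 and 321 on the arrays labelled HoxA13, against 799 and 1181 in controls. Its signal averaged 416 ± 134 with HoxA13 and 990 ± 270 in controls (SD, n = 2 each), 2.40-fold lower with HoxA13. The groups did not overlap, and the higher of the arrays labelled HoxA13 was below the lower control. On the log2 intensity scale the difference was -1.26 ± 0.51 (SE, limma adjusted p = 0.917), with a 95% interval from -2.68 to 0.16. On the log2(intensity + 16) scale it was -1.23, and 85 of the 15818 probe sets had a more negative difference. DACT2 missed the offset fit (adjusted p = 0.384) and fell in that fit with the replicate term (adjusted p = 0.0453, 95% interval from -1.78 to -0.68). With the replicate term limma took much of the spread from other probe sets, so this interval does not measure the spread of DACT2 itself. In replicates 1 and 2 DACT2 differed by -0.64 and -1.88 on the log2 intensity scale, both outside that interval. It also passed the offset fit without control replicate 1 (adjusted p = 0.0482), where 0.367% of all probe sets passed as lower and 0.145% as higher.

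The second DACT2 probe set had 390 and 155 on the arrays labelled HoxA13, against 617 and 621 in controls. Its control arrays were nearly equal, while its arrays labelled HoxA13 differed 2.51-fold. The difference was -1.33 ± 0.62 on the log2 intensity scale (SE, n = 2 each, limma adjusted p = 0.956). It is of the kind that Affymetrix marks as matching several transcripts. It too fell in the offset fit with the replicate term (adjusted p = 0.0387) and missed the fit without it (adjusted p = 0.590). The annotation gives both probe sets the same source sequence, so they are not independent measures of the transcript. The size of the difference was unequal between the replicate numbers. In replicate 1 the first probe set was 1.56-fold lower with HoxA13 and the second 1.58-fold, and in replicate 2 they were 3.68-fold and 4.002-fold lower. Without HoxA13 replicate 2 the log2 intensity difference of the second was -0.67. The other 2 DACT2 probe sets were below background on every array and say nothing about the direction.

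LGR4 and LGR5 are receptors for R-spondins, secreted proteins that strengthen Wnt signalling by keeping ZNRF3 and its relative RNF43 away from the Frizzled receptors. LGR4 had a single probe set, with 162 and 148 on the arrays labelled HoxA13, against 236 and 251 in controls. These arrays agreed closely within groups, differing 1.10-fold between the arrays labelled HoxA13 and 1.07-fold between the controls. The typical probe set above background differed 1.29-fold and 1.35-fold (medians). LGR4 was 1.57-fold lower with HoxA13, a log2 intensity difference of -0.65 ± 0.41 (SE, n = 2 each, limma adjusted p = 0.989), with a 95% interval from -1.79 to 0.48. It was lower at both replicate numbers, 1.45-fold in replicate 1 and 1.70-fold in replicate 2. It passed neither the offset fit (adjusted p = 0.961) nor that fit with the replicate term (adjusted p = 0.339). In the offset fit 7.85% of all probe sets had a larger absolute difference.

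LGR5, a target of Wnt signalling known as a marker of stem cells in the mouse intestine, was not detectable at this sensitivity. Its 3 probe sets gave at most 7.90 on the arrays labelled HoxA13 and 10.7 in controls, below the background of each array. A related receptor, LGR6, was clearly detected in controls. It had 40.5 and 8.36 on the arrays labelled HoxA13, of which the second was below background, against 79.7 and 114 in controls. Its adjusted p was 0.452 in the offset fit and 0.0505 with the replicate term (limma). RSPO3, an R-spondin gene chosen here after its values were seen, was bright on all arrays, with 2644 and 2573 against 2372 and 2389. Its groups did not overlap, though it was only 1.10-fold higher with HoxA13 (limma adjusted p = 0.9998).

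AXIN2, a scaffold of the destruction complex and the classical negative feedback target of the pathway, was bright on every array. Its brightest probe set had 888 and 828 on the arrays labelled HoxA13, against 607 and 747 in controls. The second had 755 and 886 on the arrays labelled HoxA13, against 632 and 566 in controls. At both probe sets each array labelled HoxA13 exceeded both controls. The first averaged 858 ± 42.5 with HoxA13 and 677 ± 99.1 in controls (SD, n = 2 each), 1.27-fold higher. The second was 820 ± 92.1 with HoxA13 and 599 ± 46.8 in controls, 1.37-fold higher. The differences were about the size of their errors, at 0.35 ± 0.42 and 0.45 ± 0.41 on the log2 intensity scale (SE, limma adjusted p = 0.998 and 0.992). The 95% intervals reached from -0.82 to 1.51 and from -0.70 to 1.61. Neither passed the offset fit (adjusted p = 0.999 and 0.992) or that fit with the replicate term (adjusted p = 0.560 and 0.418). The probe sets disagreed on which replicate number differed more. On the log2 scale the first had 0.55 in replicate 1 and 0.15 in replicate 2, and the second 0.26 and 0.65.

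NKD1, which binds Dishevelled and is a feedback inhibitor, had a single probe set, again of the kind that matches several transcripts. It gave 0.48 and 0.96 on the arrays labelled HoxA13 and 1.67 and 0.38 in controls, so the transcript was not measured.

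**Figure D2:**
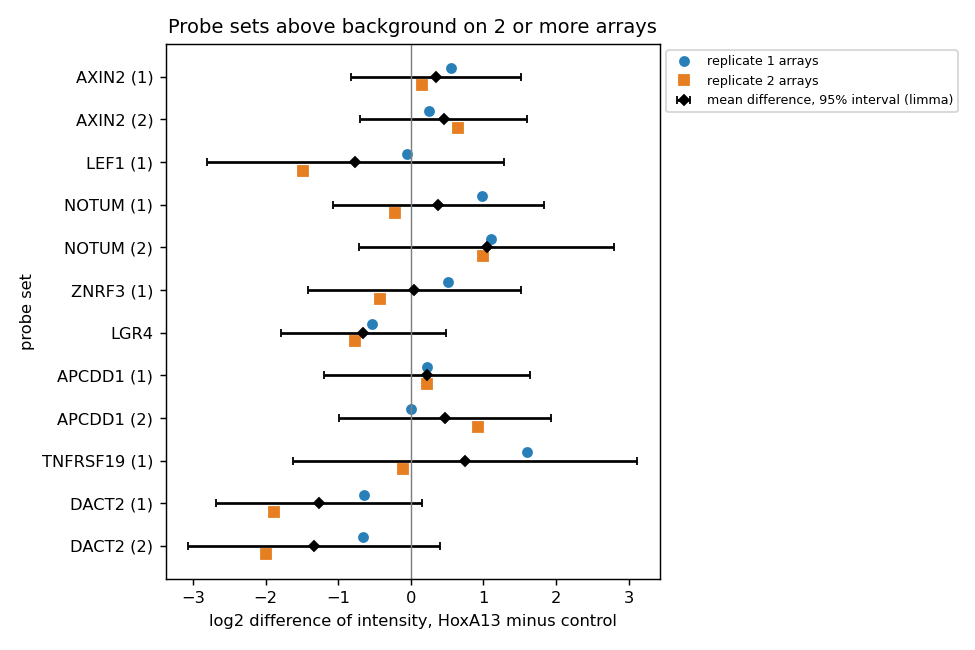
Log2 difference of intensity, HoxA13 minus control, for the 12 probe sets above background on 2 or more arrays, named as in the plot of intensities. Black diamonds and bars are the limma difference over all 4 arrays with its 95% interval, blue circles the replicate 1 arrays and orange squares the replicate 2 arrays. Every interval holds 0. Both replicate numbers lie on the same side of 0 for DACT2, LGR4, LEF1 (1), AXIN2, APCDD1 and NOTUM (2). For LEF1 (1) and APCDD1 (2) the replicate 1 difference is close to 0, at -0.050 and 0.007.

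NOTUM, a secreted enzyme that inactivates Wnt ligands by removing their lipid, had 2 probe sets above background that did not give the same picture. The brighter had 279 and 223 on the arrays labelled HoxA13, against 141 and 260 in controls. Its groups overlapped, and its differences in replicates 1 and 2 had opposite directions, 0.98 and -0.22 on the log2 scale. The dimmer had 106 and 52.8 on the arrays labelled HoxA13, against 49.7 and 26.5 in controls. There both arrays labelled HoxA13 exceeded both controls, though 52.8 and 49.7 lie close together. At each replicate number the dimmer probe set was close to 2-fold higher with HoxA13, at 2.14-fold in replicate 1 and 1.99-fold in replicate 2. Its log2 intensity difference was 1.05 ± 0.63 (SE, n = 2 each, limma adjusted p = 0.989) and that of the brighter 0.38 ± 0.52 (adjusted p = 0.9998). The dimmer missed the offset fit (adjusted p = 0.963) and that fit with the replicate term (adjusted p = 0.266).

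APCDD1, a membrane protein that binds Wnt and LRP5 and inhibits signalling, followed the replicate number more than the group. Its brightest probe set had 611 and 938 on the arrays labelled HoxA13, against 525 and 800 in controls. In each group the replicate 2 array was about 1.5-fold brighter, by 1.54-fold with HoxA13 and 1.53-fold in controls. The difference between groups was nearly the same at both replicate numbers, 1.16-fold and 1.17-fold higher with HoxA13. It did not pass with the replicate term (adjusted p = 0.772, 95% interval from -0.15 to 0.59 on the log2(intensity + 16) scale). The second APCDD1 probe set had 55.0 and 106 on the arrays labelled HoxA13, against 54.8 and 55.6 in controls. Its only high value was HoxA13 replicate 2, and without that array its log2 intensity difference was -0.0039.

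ZNRF3, a membrane ubiquitin ligase that removes Frizzled and LRP6 from the cell surface, had 157 and 81.3 on the arrays labelled HoxA13, against 109 and 109 in controls. Its controls lay between its values under HoxA13, and the difference was 0.05 ± 0.53 on the log2 intensity scale (SE, n = 2 each, limma adjusted p = 0.9998). The 95% interval, from -1.41 to 1.51, leaves room for a change of over 2-fold in either direction. Its second probe set was below background on every array.

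TNFRSF19, a receptor of the tumour necrosis factor receptor family also called TROY and known as a Wnt target in mouse intestinal stem cells, had 180 and 42.7 at its brightest probe set on the arrays labelled HoxA13, against 59.3 and 46.0 in controls. The arrays labelled HoxA13 differed 4.22-fold from each other, more than the groups did. Its difference was 0.75 ± 0.85 on the log2 intensity scale (SE, n = 2 each, limma adjusted p = 0.998), and without HoxA13 replicate 1 it was -0.29. The other 3 probe sets gave at most 13.8 on the arrays labelled HoxA13, below background, and at most 18.2 in controls. On control replicate 2 this 18.2, and the 16.6 of another probe set, were just above the background of 16.5. The probe set with 18.2 had 9.72 and 1.80 on the arrays labelled HoxA13, against 11.6 on control replicate 1. Its groups did not overlap, with HoxA13 lower, opposite in direction to the brightest. The annotation gives 2 of the TNFRSF19 probe sets the same source sequence.

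LEF1, the DNA-binding partner of β-catenin and itself a target, was at the edge of detection. Its brightest probe set, also of the kind that matches several transcripts, had 23.6 and 7.25 on the arrays labelled HoxA13, of which the second was below background, against 24.4 and 20.2 in controls. The difference of -0.76 ± 0.73 on the log2 intensity scale (SE, n = 2 each, limma adjusted p = 0.995) rested on HoxA13 replicate 2, and without that array it was 0.09. The other 2 LEF1 probe sets were below background on all arrays. Of its relatives, TCF7L2 had 83.0 and 59.0 on the arrays labelled HoxA13, against 41.2 and 32.4 in controls, with groups that did not overlap. TCF7L2 passed neither the offset fit (limma adjusted p = 0.950) nor that fit with the replicate term (adjusted p = 0.349).

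**Figure D3:**
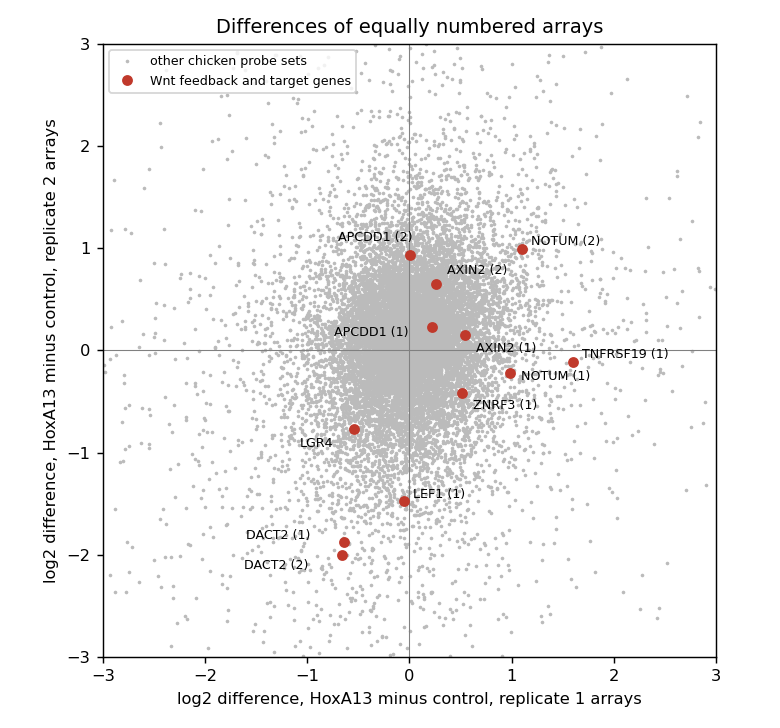
Log2 difference of intensity, HoxA13 minus control, on the replicate 1 arrays (x axis) and the replicate 2 arrays (y axis) for chicken probe sets above background on 2 or more arrays. Of these probe sets 15486 lie within the axes and 332 outside them, and red points are the 12 of the Wnt feedback and target genes. The 2 DACT2 probe sets lie apart at the lower left, at -0.64 and -0.66 on the x axis and -1.88 and -2.00 on the y axis.

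The rest of the pathway was described with lists of genes, each gene at its brightest probe set. Of 15 measured relatives of the 10 genes, 3 had groups that did not overlap with HoxA13 higher and 4 with HoxA13 lower, where 17.0% and 16% of all chicken probe sets did. Their median log2 intensity difference was -0.31, against 0.02 over all chicken probe sets. Over the 10 relatives above background on 2 or more arrays it was -0.17, against 0.04 over all such probe sets. None passed in any of the 3 fits, and 1 had an unadjusted p under 0.05 in the first, against 5.91% of all. That gene was TRABD2A, which codes for a surface protease that cleaves Wnt ligands. TRABD2A had 70.0 and 79.1 on the arrays labelled HoxA13, against 29.5 and 26.1 in controls, 2.68-fold higher. It missed the offset fit (limma adjusted p = 0.484) and that fit with the replicate term (adjusted p = 0.0969).

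Of 23 measured genes of signal transduction, 6 had groups that did not overlap with HoxA13 higher and 4 with HoxA13 lower, where 17.0% and 16% of all chicken probe sets did. The median log2 intensity difference was 0.14, against 0.02 over all chicken probe sets. Over the 15 above background on 2 or more arrays it was 0.07, against 0.04 over all such probe sets. None passed, and 3 had an unadjusted p under 0.05 in the first fit, against 5.91% of all. These were APC2, LRP6 and BCL9L, each at or below 15.6 on every array and thus near or under background. CTNNB1, the β-catenin gene, chosen here after its values were seen, was bright and overlapped between groups. It had 4656 and 3743 on the arrays labelled HoxA13, against 4513 and 3512 in controls.

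Of 24 measured further targets, 10 had groups that did not overlap with HoxA13 higher and 7 with HoxA13 lower, where 17.0% and 16% of all chicken probe sets did. The median log2 intensity difference was 0.27, against 0.02 over all chicken probe sets. Over the 23 above background on 2 or more arrays it was 0.38, against 0.04 over all such probe sets. In the first fit 2 had an unadjusted p under 0.05, against 5.91% of all. None passed the first or the offset fit. With the replicate term 4 passed as higher, against 0.335% of all probe sets, and 0 as lower, against 0.676%. They were FGF8 (adjusted p = 0.00041), EPHA1 (0.016), SP8 (0.0190) and EVX1 (0.0364). EPHA1, an Eph receptor gene, had 1486 and 1043 on the arrays labelled HoxA13, against 819 and 591 in controls, and was 1.81-fold higher in replicate 1 and 1.77-fold in replicate 2. FGF8, SP8 and EVX1 are themselves regulators of the streak and tail bud, and CDX4, TBXT and MSGN1 on the same list, named here after their values were seen, did not pass. In the offset fit with the replicate term DACT2 was called in the opposite direction to FGF8, EPHA1, SP8 and EVX1. The first fit and the offset fit called none of these genes. The other 9 feedback and target genes gave no call. Whether the 10 genes and the further targets differ as groups was not tested.

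**Figure D4:**
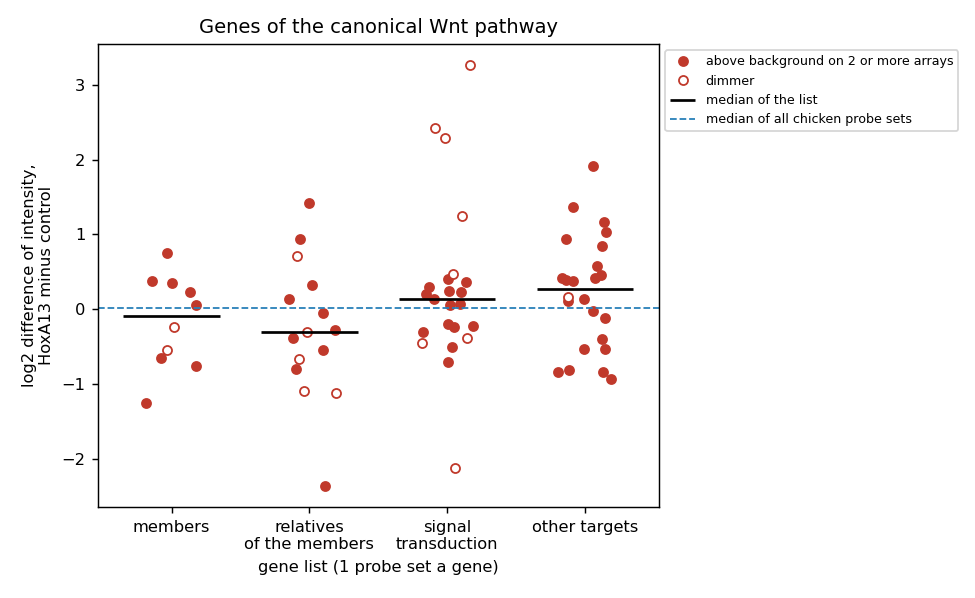
Log2 difference of intensity, HoxA13 minus control, of each gene (1 probe set a gene) for the 10 feedback and target genes (members) and the 3 other lists of the Wnt pathway, with filled circles for probe sets above background on 2 or more arrays and open circles for dimmer ones. Black lines are list medians of -0.10, -0.31, 0.14 and 0.27 from left to right, and the dashed blue line is the median over all chicken probe sets, 0.02. Over filled circles alone the medians are 0.14, -0.17, 0.07 and 0.38, so that of the members changes sign. The extreme values of signal transduction are open circles.

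The summed signals of 6 of the 9 marker lists did not overlap between the groups, where 32.9% of single chicken probe sets did not. Some genes, such as CDX2 and MSGN1, are on more than 1 list, so these sums are not independent. The sum of 11 blood and endothelial markers was 126 and 58.1 on the arrays labelled HoxA13, against 755 and 850 in controls, with 6 markers lower without overlap, 1 higher, where 16% and 17.0% of all chicken probe sets were, and KDR, FLI1, CDH5, TIE1 and TEK below background throughout. For 9 lateral and intermediate mesoderm markers the sum was 59.1 and 68.4 on the arrays labelled HoxA13, against 158 and 202 in controls. Of these 9, 4 were lower without overlap and 0 higher, but only 1 was above background on 2 or more arrays. FOXF1, HAND1, HAND2, GATA4, GATA6 and LHX1 were below background throughout, so the sum is 1 detected marker plus dim ones. The sum of 7 surface ectoderm markers was 2133 and 1226 on the arrays labelled HoxA13, against 3006 and 2275 in controls. Of these, 2 were lower without overlap and 1 higher. Sums were higher with HoxA13 for 3 lists, though not at every marker. For 8 streak and tail bud markers the sum was 14692 and 14502 against 13104 and 11389. Of these 8, 5 were higher without overlap and 1, MSGN1, lower. TBXT gave 6483 and 5820 of this sum, against 5873 and 5508, and overlapped between the groups. TBXT, FGF8, CDX2, CDX4, MSGN1 and EVX1 are also among the further targets above, so the sum largely repeats their values. For 4 markers of the notochord and node it was 172 and 213 against 88.6 and 156. Of these, 1 was higher without overlap and 1 lower, and SHH was below background on all arrays. For 5 of the endoderm it was 516 and 599 against 432 and 425, with 2 higher without overlap and 1 lower. CDX2, which was 1.33-fold higher with HoxA13, made up most of the endoderm sum on every array. The endoderm markers SOX17 and FOXA1 were below background on all arrays. The higher endoderm sum therefore does not show that endoderm markers other than CDX2 were higher. The sums of PSM, somite and neural plate markers overlapped between the groups. The part of these tissues in the lower signals of DACT2, LGR4 and LGR6 was not tested. Fewer cells of a type and less RNA per cell cannot be told apart in such pools.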

How the data were processed

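The authors deposited an intensity on a linear scale for each probe set of an Affymetrix chicken array. R 2.12.1 is the only tool in the submitters' processing notes. How the probes were summarised, background-corrected and scaled is not given in the sources used here. The intensities were used as they stood, on a log2 scale.

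Of all probe sets, 37695 were chicken, 687 viral, 57 reporters and 96 controls. Of the chicken ones, 27168 have 1 symbol in the platform annotation, 177 several and 10350 none. The symbols of all 10 genes matched RefSeq by Entrez number.

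The planned test was limma 3.58.1 (R 4.3.3) on log2(intensity), checked on simulated data. The offset fit and its replicate term, left-out arrays, quantile normalization and median centring were alternatives. Named genes are all members with every probe set, and, per list, the 3 with the smallest p in the planned test. Genes of a list that passed the offset fit with or without the replicate term are named too. Members and lists were chosen with earlier results of these data known. The labels call the arrays biological replicates. With 2 per group, the number of arrays limits precision, and limma takes much of a probe set's spread from the others.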

Additional observations from a re-analysis of the deposited data

How the results depend on the processing

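The planned limma fit called 0 probe sets higher and 0 lower. The filter on dim probe sets called 1 lower, the trend and robust prior 1 lower, the offset fit 3 higher and 10 lower, and the offset fit with the replicate block 53 higher and 107 lower. Fits without 1 array called from 0 to 23 higher and from 0 to 58 lower, the highest counts being those of the offset fit without control replicate 1. The replicate block alone called 0 of either. The numbers are tied to nothing in the labels, and the differences between replicates 1 and 2 correlated at 0.30 (Pearson, across probe sets above background) between the groups, with only 2 pairs. The crossed pairing was not run.

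Both brighter DACT2 probe sets passed with the block in the offset fit (log2 differences of -1.23 and -1.27). Without control replicate 1, which leaves 1 control array, the offset-fit difference of the first was -1.51. Over all settings its adjusted p reached from 0.0453 to 0.99999. No other probe set of the 10 genes passed in any setting.

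Of the 24 probe sets, 10 kept their direction in every setting. Groups that do not overlap ensure this when an array is left out, but 1 of the 10, a dim DACT2 probe set, had groups that overlapped. For 14 the direction turned without some array, and the cause was not tested. Their log2 differences without 1 array lay from -1.62 to 0.086 and from -1.26 to 0.9999 (LEF1), from -0.060 to 0.82 (NOTUM), from -0.42 to 0.52 and from -0.32 to 2.59 (ZNRF3), from -1.18 to 0.078, from -1.07 to 1.33 and from -3.93 to 0.092 (LGR5), from -0.086 to 0.53 and from -0.0039 to 0.94 (APCDD1), from -0.29 to 1.78, from -0.29 to 2.81 and from -1.22 to 0.43 (TNFRSF19), and from -1.31 to 0.83 (NKD1). An offset of 16 turned a LEF1 probe set to 0.044 and an LGR5 probe set to -0.045, both below background on all arrays. For the 10 probe sets below background on every array a difference is not detectable with these arrays.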
